A study of Homo sapiens with 16 samples.

Results

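The 9 genes described here, B3GALT5, TMEM200A, MECOM, ZBED2, ADGRF1, DACT1, MAL2, SYK and HS3ST1, were chosen by their low RNA in HCT116 cells with a shortened Rpn10, whichever siRNA the cells had received. They are 9 of the 22916 genes in the scaled table that the authors deposited, and all 9 were among the 17104 genes expressed highly enough to be tested. HCT116 is an established human colon cancer line. WT cells were unedited, and truncation cells had been edited to carry an Rpn10 that lacks its ubiquitin interacting motif. PSMD4 encodes Rpn10, through which the proteasome binds ubiquitin chains. WT and truncation cells were reverse-transfected with Lipofectamine RNAiMAX and either a scrambled siRNA (scramble) or 4 mixed siRNAs to OTUD5, a deubiquitinase (knockdown), both at 50 nM and for 48 hours, so that every group had received an siRNA. Each of the 4 groups, WT scramble, WT knockdown, truncation scramble and truncation knockdown, had 4 libraries. The labels do not say how many edited clones the truncation cells came from, so that an effect of the edit and a property of the edited line cannot be told apart. They call the libraries biological replicates and name no separate cultures, so the p-values below measure the spread between these libraries, which may be technical.

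Levels are given as CPM, counts scaled to a common library size with TMM factors, and changes as log2 fold changes from edgeR's model with their standard error after ±, unless an SD is named. Called means an adjusted p under 0.05 by edgeR's quasi-likelihood test with Benjamini-Hochberg adjustment. Because low levels in truncation against WT cells chose the 9 genes, their values in those comparisons are given as a description, and no test of them is read as a result. Knockdown against scramble within WT cells or within truncation cells was not used to choose them and was tested, although it shares libraries with the comparisons that were.

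Libraries held 28777244 to 29645663 counts. The targeted gene OTUD5 had 17.4 to 22.5 CPM over the 8 knockdown libraries and 83.7 to 95.9 CPM over the 8 scramble libraries, which covers 4 truncation knockdown libraries whose titles say scramble while their descriptions and treatment say OTUD5 siRNA. PSMD4 is counted over its whole length, so its count does not check the edit. Of 10 colon epithelial markers, 8 had at least 1 CPM on average in every group, CDX1 had 0 counts in 3 groups and 2 counts in truncation knockdown, and VIL1 had 1 to 19 counts a group. The summed level of the 10 was 4206.2 to 5646.6 CPM over all libraries, most of it KRT8 and KRT19, and it hides differences in single markers. With scramble, mean CPM was lower in truncation than in WT cells for EPCAM, KRT19, CDH1 (28.2 against 51.7) and CLDN7 (45.8 against 76.3). It was higher for KRT8, KRT18, CLDN4 and CLDN3 (27.4 against 17.0). These differences were not tested. The summed level of 10 stromal and endothelial markers was 48.3 to 58.1 CPM (WT) against 34.9 to 38.7 CPM (truncation) with scramble, and 35.5 to 52.0 CPM (WT) against 36.0 to 41.7 CPM (truncation) with knockdown, most of it COL1A1 (50.4 CPM in WT scramble and 33.2 CPM in truncation scramble cells on average), and its part in the results was not tested. Genes with any count numbered 32264 in WT knockdown replicate 3 and 25626 to 27765 elsewhere, and WT knockdown replicate 2 was the lowest or highest of its group for each of the 9 genes.

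The 9 proteins belong to different parts of an epithelial cell. ADGRF1, MAL2 and TMEM200A are membrane proteins, B3GALT5 and HS3ST1 are glycosyl- and sulfotransferases of the Golgi that finish sugar chains, SYK and DACT1 act in signalling, and MECOM and ZBED2 are zinc finger proteins that bind DNA. In colon epithelium, B3GALT5 makes the type 1 chains on which Lewis antigens are built, and MAL2 takes part in transport to the apical surface. Promoters rich in CpG, the dinucleotide that DNA methylation acts on, and CpG-poor promoters are the main classes of human promoters.

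RefSeq promoter windows (GRCh38.p14, 250 bases before to 50 after a start) matched 8 of the 9 genes, MAL2 not among them, with 15 windows in all. They were of both kinds. CpG observed over expected was at least 0.6 in 8 of the 15 windows, from 6 genes, against 48.9% of all 35116 windows. The following stretches before a start are shown for the span between the CpG-rich and the CpG-poor ends of the set, each read 5′ to 3′ on the strand of its gene, with every CpG in capitals and cut before the first base of an exon of the gene in GENCODE 29.
B3GALT5, CpG-rich start, chr21:39612690-39612939, plus strand: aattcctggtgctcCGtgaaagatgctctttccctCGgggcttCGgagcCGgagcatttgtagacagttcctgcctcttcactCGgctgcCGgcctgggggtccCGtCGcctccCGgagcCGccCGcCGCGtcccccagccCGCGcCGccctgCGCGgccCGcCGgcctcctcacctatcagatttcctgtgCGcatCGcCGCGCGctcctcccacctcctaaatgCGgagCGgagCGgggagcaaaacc
B3GALT5, CpG-poor start, chr21:39642146-39642395, plus strand: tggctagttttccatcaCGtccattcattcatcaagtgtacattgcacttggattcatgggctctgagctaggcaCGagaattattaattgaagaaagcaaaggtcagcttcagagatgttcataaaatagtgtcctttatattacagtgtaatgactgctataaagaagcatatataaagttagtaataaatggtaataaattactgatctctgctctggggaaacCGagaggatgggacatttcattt
DACT1, CpG-rich start, chr14:58637712-58637961, plus strand: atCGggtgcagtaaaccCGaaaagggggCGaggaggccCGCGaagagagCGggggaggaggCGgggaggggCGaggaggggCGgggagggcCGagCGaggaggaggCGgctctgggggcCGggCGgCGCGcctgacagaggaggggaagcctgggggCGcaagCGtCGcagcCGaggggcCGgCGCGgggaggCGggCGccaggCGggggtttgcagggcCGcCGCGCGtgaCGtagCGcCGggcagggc
ZBED2, chr3:111595444-111595596, minus strand: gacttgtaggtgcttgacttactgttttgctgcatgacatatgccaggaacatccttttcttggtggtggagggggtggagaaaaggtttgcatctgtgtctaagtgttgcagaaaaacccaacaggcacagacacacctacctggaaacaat
ADGRF1, chr6:47042364-47042582, minus strand: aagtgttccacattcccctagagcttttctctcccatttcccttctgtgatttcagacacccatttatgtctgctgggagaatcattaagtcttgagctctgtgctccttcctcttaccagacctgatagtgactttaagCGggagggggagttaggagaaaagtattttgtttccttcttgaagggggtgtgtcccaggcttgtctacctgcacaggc

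The upper B3GALT5 stretch holds 28 CpG in 250 bases and the lower one 3, and DACT1's holds 33 in 250 bases. ZBED2's 153 bases hold 0 and ADGRF1's 219 bases hold 1. Over whole windows of 300 bases, CpG observed over expected was 0.96 and 0.29 at the B3GALT5 starts, 1.1 at the DACT1 start shown, 0.74 at TMEM200A, 0.77 at HS3ST1, 0.05 at ZBED2 and 0.11 at ADGRF1, against a median of 0.58 over all windows. Short motifs were searched on both strands, overlaps allowed, and no motif was in the windows of all 8 genes. The GC box GGGCGG was in 9 of the 15 windows and in 45.0% of all windows, CCAAT in 3 of 15 and 34.6%, and TATAAA in 1 of 15, the CpG-poor B3GALT5 start, and 11.5%. The forkhead motif TGTTTAC was in 1 of 15 windows and 3.42% of all. The AP-1 motif TGANTCA was in 0 of 15 and 7.71%, the HNF4 motif CAAAGTCCA in 0 of 15 and 0.384%, and the Grainyhead motif AACCGGTT in 0 of 15 and 0.134%.

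The extent of the loss differed among the 9 genes. With scramble siRNA the truncation cells kept between 2.25% (B3GALT5) and 13.2% (HS3ST1) of the mean CPM of WT cells, and with knockdown between 2.72% (B3GALT5) and 11.9% (DACT1). In all 9 genes and under both siRNAs, every truncation library lay below every WT library, beside 21.8% of all tested genes under scramble and 18.5% under knockdown. All 9 were also called lower in both comparisons, beside 22.4% of all tested genes called lower under scramble and 23.6% under knockdown. Since these comparisons chose the genes, nothing is read from these counts. In bulk RNA, fewer cells that express a gene and less of its RNA in each cell cannot be told apart. The median log2 difference over the 9 was -4.06 under scramble and -3.72 under knockdown, and over all tested genes it was -0.021 and -0.003. By counts, nearly silenced describes B3GALT5 and MECOM, with at most 10 counts in any truncation scramble library, and not HS3ST1 and MAL2, with 499 to 545 and 366 to 405 counts there.

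**Figure D1:**
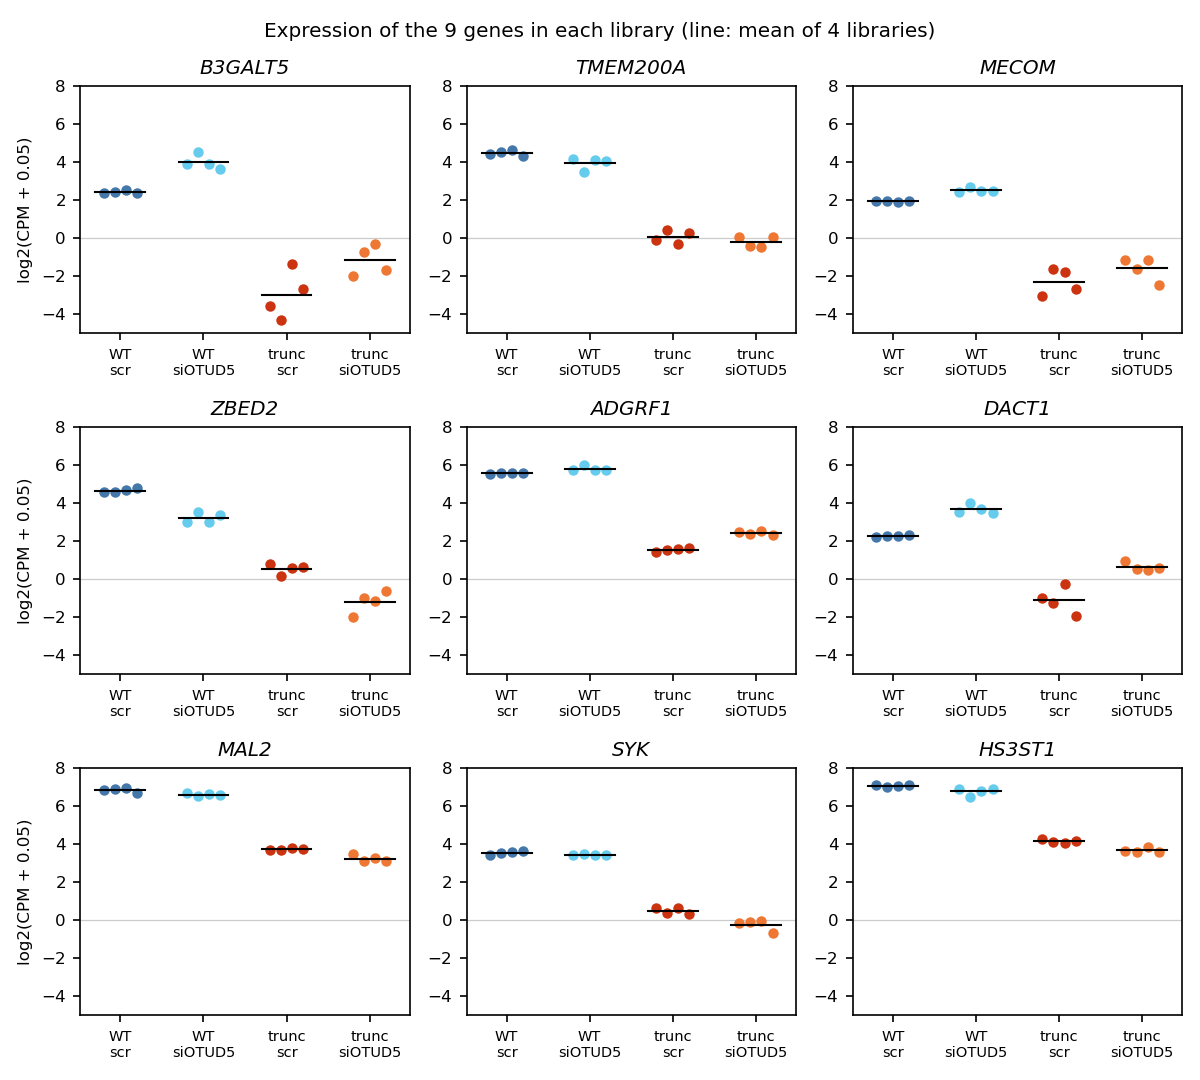
Level of each of the 9 genes in each of the 16 libraries, as log2(CPM + 0.05) on the vertical axis, by group on the horizontal axis (scr, scramble; siOTUD5, knockdown); each point is a library and each line the mean of 4. In every panel the 8 truncation libraries lie below the 8 WT libraries, and B3GALT5 in truncation scramble cells spreads from 0 to 0.337 CPM.

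ADGRF1 (ENSG00000153292, chromosome 6, 46997703 to 47042363, minus strand) encodes an adhesion G protein-coupled receptor, a surface receptor with a long extracellular part. Its WT scramble libraries had 46.3, 47.7, 48.6 and 47.9 CPM, and its truncation scramble libraries 2.63, 2.8, 2.93 and 3.01 CPM. With knockdown the WT libraries had 53.3, 63.5, 53.9 and 52.9 CPM and the truncation libraries 5.56, 5.11, 5.81 and 4.86 CPM. All 4 groups were separate, in the order truncation scramble, truncation knockdown, WT scramble, WT knockdown. Truncation cells were at 5.97% of the WT level under scramble (-4.06 ± 0.08) and 9.55% under knockdown (-3.39 ± 0.08). Knockdown raised ADGRF1 in WT cells (0.23 ± 0.06, adjusted p = 0.00389, 1.17-fold) and in truncation cells (0.91 ± 0.1, adjusted p = 2.6e-08, 1.88-fold). The WT call was lost when WT knockdown replicates 2 and 3 were both left out (0.16, adjusted p = 0.0541). The change in truncation cells exceeded the change in WT cells by 0.68 ± 0.12, given with no test, since it equals the difference of the comparisons that chose the gene.

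MAL2 (ENSG00000147676, chromosome 8, 119165034 to 119245673, plus strand) encodes a small membrane-spanning protein of transcytosis to the apical surface. It had 114.4, 118.9, 121.5 and 104.5 CPM in the WT scramble libraries and 12.7, 12.8, 13.6 and 13.3 CPM in the truncation scramble libraries. WT knockdown libraries had 103.1, 91.6, 99.2 and 95.7 CPM, and truncation knockdown libraries 11.1, 8.62, 9.41 and 8.59 CPM. Within each genotype the scramble and knockdown libraries did not overlap, knockdown lying lower. Truncation cells kept 11.4% of the WT level under scramble (-3.13 ± 0.07) and 9.68% under knockdown (-3.37 ± 0.08). Knockdown lowered MAL2 in WT cells (-0.24 ± 0.06, adjusted p = 0.00328) and in truncation cells (-0.47 ± 0.08, adjusted p = 2.1e-05).

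TMEM200A (ENSG00000164484, chromosome 6, 130365734 to 130443063, plus strand) encodes a membrane protein. WT scramble libraries had 21.5, 22.7, 24.7 and 19.8 CPM, and truncation scramble libraries 0.865, 1.28, 0.741 and 1.13 CPM. With knockdown the WT libraries were at 17.7, 11.0, 17.2 and 16.7 CPM and the truncation libraries at 0.971, 0.687, 0.66 and 0.999 CPM. Scramble and knockdown did not overlap in WT cells and did in truncation cells. What remained in truncation cells was 4.53% under scramble (-4.46 ± 0.16) and 5.29% under knockdown (-4.23 ± 0.17). Knockdown lowered it in WT cells (-0.5 ± 0.12, adjusted p = 8.7e-04), where the lowest library was WT knockdown replicate 2. In truncation cells the difference was -0.27 ± 0.26 (adjusted p = 0.381), which did not pass the test, at 20 to 38 counts a library.

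B3GALT5 (ENSG00000183778, chromosome 21, 39556442 to 39673137, plus strand) encodes the beta-1,3-galactosyltransferase of type 1 lactosamine chains. It had 5.03, 5.3, 5.71 and 5.03 CPM in WT scramble libraries, and in truncation scramble libraries 0.0346, 0, 0.337 and 0.103 CPM, which are 1, 0, 10 and 3 counts. Under knockdown it stood at 15.1, 22.8, 15.1 and 12.3 CPM in WT cells and at 0.201, 0.549, 0.759 and 0.266 CPM, or 6, 16, 23 and 8 counts, in truncation cells. The WT groups were separate from each other, and the truncation groups overlapped. Truncation cells were at 2.25% of the WT level under scramble (-5.42 ± 0.38) and 2.72% under knockdown (-5.19 ± 0.27). Truncation scramble replicate 3 held 10 of the 14 counts of its group, and without it the scramble difference was -6.72. From the summed counts, 603 in WT and 14 in truncation scramble libraries, the ratio per library total was 43.5, with a 95% exact interval of 25.7 to 80.0 that covers counting error only. Knockdown raised B3GALT5 3.1-fold in WT cells (1.63 ± 0.19, adjusted p = 7.9e-08). In truncation cells it was also called higher (1.86 ± 0.62, adjusted p = 0.0124), but it was tested there because of its WT counts. B3GALT5 did not pass the filter on low counts when only truncation libraries were fitted, so it had no call in that fit. The call was lost without truncation knockdown replicate 3 (1.45, adjusted p = 0.075), and the difference was 3.15 without truncation scramble replicate 3 (adjusted p = 0.00122).

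HS3ST1 (ENSG00000002587, chromosome 4, 11393150 to 11429765, minus strand) encodes the heparan sulfate 3-O-sulfotransferase known for the antithrombin-binding site of heparan sulfate. Its levels in WT scramble libraries were 139.7, 129.2, 131.3 and 135.5 CPM, and in truncation scramble libraries 18.9, 17.0, 16.8 and 18.0 CPM. They were 120.0, 90.2, 110.4 and 119.7 CPM in WT knockdown and 12.2, 11.9, 14.3 and 12.1 CPM in truncation knockdown libraries. No groups overlapped, and HS3ST1 remained well measured in all 16 libraries, with at least 348 counts. The truncation cells kept 13.2% of the WT level under scramble (-2.92 ± 0.08) and 11.5% under knockdown (-3.12 ± 0.08). Knockdown lowered it in both genotypes, WT (-0.28 ± 0.07, adjusted p = 0.002) and truncation (-0.48 ± 0.09, adjusted p = 3.8e-05). Without WT knockdown replicates 2 and 3 the WT difference was -0.16 (adjusted p = 0.0513).

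SYK (ENSG00000165025, chromosome 9, 90801787 to 90898549, plus strand) encodes a tyrosine kinase best known for signalling from immune receptors, and it is also made in epithelial cells. WT scramble libraries had 10.5, 11.3, 11.7 and 12.5 CPM and truncation scramble libraries 1.52, 1.25, 1.52 and 1.2 CPM. Knockdown libraries had 10.5, 10.9, 10.6 and 10.7 CPM in WT cells and 0.837, 0.892, 0.925 and 0.566 CPM in truncation cells. The WT groups overlapped and the truncation groups did not. Truncation cells kept 11.9% under scramble (-3.07 ± 0.12) and 7.54% under knockdown (-3.72 ± 0.13). In WT cells knockdown gave a difference of -0.11 ± 0.09 (adjusted p = 0.343), and in truncation cells it lowered SYK (-0.76 ± 0.17, adjusted p = 3.6e-04). The truncation effect minus the WT effect was -0.66 ± 0.19, again with no test. Blood cell markers were looked at because blood cells carry much SYK. The summed level of 9 such markers was 1.43 to 5.5 CPM in 15 libraries and 23.5 CPM in WT scramble replicate 4, where PTPRC, the common leukocyte antigen, was at 11.6 CPM against at most 0.849 CPM elsewhere. SYK in that library, 12.5 CPM, stood beside 10.5 to 11.7 CPM in the other 3 of its group, and over the 8 fits that left out 1 library each its scramble difference ran from -3.11 to -3.0.

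DACT1 (ENSG00000165617, chromosome 14, 58633967 to 58648321, plus strand) encodes a Dishevelled-binding regulator of Wnt signalling. Libraries of WT scramble cells had 4.57, 4.75, 4.71 and 5.0 CPM, and those of truncation scramble cells 0.45, 0.371, 0.775 and 0.205 CPM. In knockdown libraries the values were 11.6, 15.7, 12.8 and 11.0 CPM for WT and 1.88, 1.41, 1.32 and 1.47 CPM for truncation cells. The 4 groups did not overlap, and even the highest truncation library, 1.88 CPM, was below the lowest WT library. The remaining level was 9.47% under scramble (-3.39 ± 0.21) and 11.9% under knockdown (-3.07 ± 0.16). Knockdown raised DACT1 2.69-fold in WT cells (1.43 ± 0.14, adjusted p = 4.6e-09) and 3.34-fold in truncation cells (1.74 ± 0.25, adjusted p = 2.0e-06).

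MECOM (ENSG00000085276, chromosome 3, 169083499 to 169663618, minus strand) encodes a zinc finger transcription factor, EVI1 in its short form, with a PR domain in its long form. It had 3.87, 3.74, 3.67 and 3.82 CPM in WT scramble libraries and 0.0692, 0.27, 0.236 and 0.103 CPM, or 2, 8, 7 and 3 counts, in truncation scramble libraries. Knockdown libraries had 5.34, 6.28, 5.54 and 5.55 CPM in WT cells and 0.402, 0.275, 0.396 and 0.133 CPM, or 12, 8, 12 and 4 counts, in truncation cells. WT knockdown lay above WT scramble in all libraries, and the truncation groups overlapped. Truncation cells were at 4.48% under scramble (-4.44 ± 0.25) and 5.31% under knockdown (-4.21 ± 0.21). Knockdown raised MECOM in WT cells (0.59 ± 0.15, adjusted p = 0.00187). In truncation cells the difference was 0.81 ± 0.38 (adjusted p = 0.0727). It was called there without truncation scramble replicate 2 (1.1, adjusted p = 0.033) or without truncation knockdown replicate 4 (1.04, adjusted p = 0.0195).

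ZBED2 (ENSG00000177494, chromosome 3, 111592900 to 111595443, minus strand) encodes a BED-type zinc finger protein. WT scramble cells had 23.9, 23.6, 25.4 and 27.6 CPM, and truncation scramble cells had 1.66, 1.05, 1.45 and 1.5 CPM. WT knockdown cells had 8.03, 11.4, 7.95 and 10.3 CPM, and truncation knockdown cells 0.201, 0.446, 0.396 and 0.599 CPM. All 4 groups were separate, with knockdown below scramble in each genotype. Truncation cells kept 5.63% under scramble (-4.15 ± 0.14) and 4.37% under knockdown (-4.5 ± 0.19). Knockdown lowered ZBED2 2.67-fold in WT cells (-1.42 ± 0.11, adjusted p = 2.4e-10) and 3.42-fold in truncation cells (-1.77 ± 0.26, adjusted p = 2.4e-06).

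Knockdown thus moved the 9 genes in different directions. In WT cells 8 of 9 were called, 4 higher (B3GALT5, DACT1, MECOM and ADGRF1) and 4 lower (ZBED2, TMEM200A, HS3ST1 and MAL2), beside 50.3% of all tested genes called, 25.2% higher and 25.1% lower. In truncation cells 7 of 9 were called, 3 higher (B3GALT5, DACT1 and ADGRF1) and 4 lower (ZBED2, SYK, HS3ST1 and MAL2), beside 56.7% of all tested genes called, 28.7% higher and 28.1% lower. B3GALT5 and MECOM entered that comparison only through their WT counts, and with truncation libraries alone 7 genes passed the filter and 6 were called. Scramble and knockdown libraries did not overlap in 8 of 9 genes in WT cells, against 41.4% of all tested genes, and in 6 of 9 in truncation cells, against 53.9%. Over the 9 genes the median change was -0.11 in WT and -0.27 in truncation cells, and over all tested genes 0.006 and 0.023. With WT knockdown replicates 2 and 3 left out, an alternative chosen after the libraries had been seen, 6 of 9 were called in WT cells, 3 higher and 3 lower. The change in truncation cells less the change in WT cells was 0.68 for ADGRF1, -0.66 for SYK and -0.35 to 0.31 for the other 7, none tested.

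**Figure D2:**
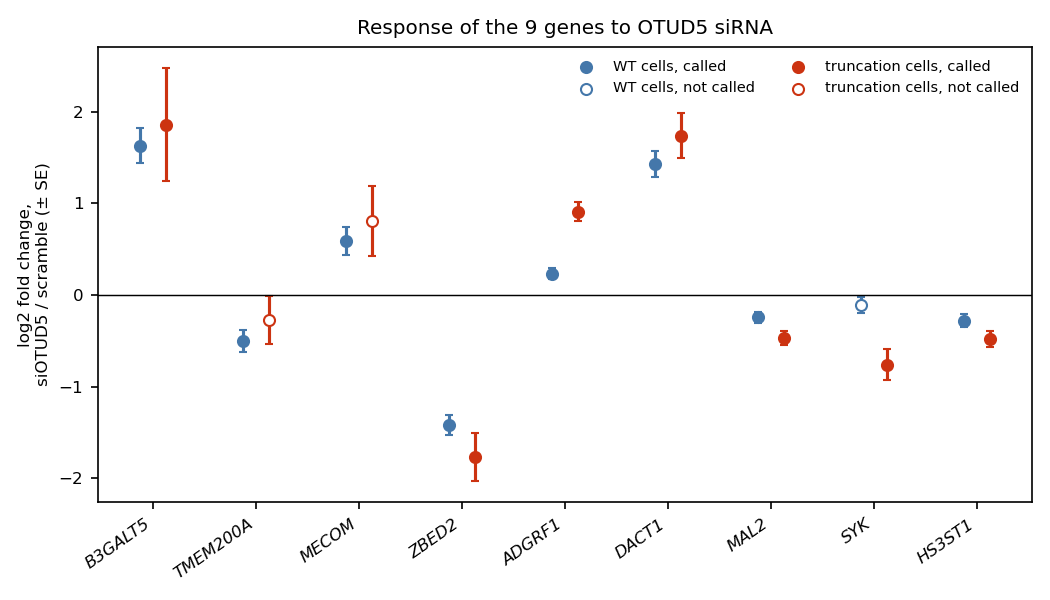
Log2 fold change of knockdown against scramble (vertical axis, ± SE) for each of the 9 genes (horizontal axis) in WT cells (blue) and truncation cells (red); filled points were called at an adjusted p under 0.05 and open points were not. B3GALT5 and DACT1 lie highest and ZBED2 lowest in both genotypes, from 1.86 to -1.77.

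Per kilobase of exon the order of levels differed from the order of loss. In WT scramble cells MAL2 stood at 33.5 ± 2.19 CPM per kb (SD, n = 4), HS3ST1 at 16.4 ± 0.569 and ZBED2 at 10.9 ± 0.798. ADGRF1 at 3.84 ± 0.0768 and TMEM200A at 3.61 ± 0.331 differed by less than their spread. SYK stood at 2.21 ± 0.157, DACT1 at 1.06 ± 0.0395, MECOM at 0.415 ± 0.00988 and B3GALT5 at 0.368 ± 0.0225. In truncation scramble cells MAL2 (3.81 ± 0.134) and HS3ST1 (2.16 ± 0.115) still led, ZBED2 was at 0.612 ± 0.113, and the other 6 lay between 0.00828 (B3GALT5) and 0.263 (SYK). MAL2 in truncation scramble cells and ADGRF1 in WT scramble cells differed by less than their spread.

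Under scramble 6488 genes whose mean log2 CPM was 1 or more were called in either direction, 3181 of them lower. Ordered by log2 fold change from the lowest, the 9 genes held ranks 1 to 5 and 7 to 10 there. Under knockdown they held ranks 1 to 9 of 6818 called genes ordered likewise. Because these comparisons chose the 9 genes, nothing is read from their ranks. Rank 6 under scramble was CSF3R, a blood cell cytokine receptor and no member, with 26.3 CPM in WT scramble replicate 4 and at most 0.209 CPM in the other 3 libraries of that group. At the edge, HS3ST1 was the last gene inside with a log2 of -2.92. NRP1 (-2.88), MSRB3-AS1 (-2.84) and SEC31A (-2.67) were the next outside. Under knockdown these 3 stood at -2.99, -2.24 and -1.93.

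Genes beside the 9 on the chromosome were mostly not lost with them. Neighbours were the 3 nearest tested genes on each side within 1000000 bases, 41 in all. Tested genes had passed the filter on low counts, and beyond that filter none was chosen by its values. Under scramble 23 of the 41 were called, 8 higher and 15 lower, and under knockdown 24, 6 higher and 18 lower, beside 44.0% of all tested genes under scramble (21.6% higher, 22.4% lower) and 45.5% under knockdown (21.9% higher, 23.6% lower). The median difference was -0.15 and -0.11. At least 2-fold lower were 6 neighbours under scramble and 6 under knockdown, beside 2.95% and 2.5% of all tested genes. Of the 41, 5 were at least 2-fold lower under both siRNAs, beside 1.43% of all tested genes. These 5 had 0 to 11 counts in each truncation library. They passed the filter on low counts through their WT libraries, so their number depends on that filter. These 5 are named below because they fell in these same comparisons. Their p-values and separate libraries there are therefore a description and no further support. Of the 4 neighbours that overlap their gene or lie within 1 kb of it, 3 were among these 5, and of the 37 farther away 2 were. The other 36 lay between -1.11 and 0.71 under scramble, 35 of them within 2-fold, and between -1.05 and 1.23 under knockdown, 34 within 2-fold. SAMD12 near MAL2 was lowest of them under scramble (-1.11 ± 0.1), and NECTIN3 near ZBED2 lowest under knockdown (-1.05 ± 0.07).

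B3GALT5-AS1 is a noncoding gene on the opposite strand inside B3GALT5 (chromosome 21, 39597147 to 39612821). Its annotated start at 39612821 lies inside the CpG-rich stretch printed above, 119 bases before the RefSeq start of B3GALT5 there. It had 1.71, 1.42, 1.0 and 1.61 CPM in WT scramble libraries and 0, 0.101, 0.0337 and 0.0342 CPM in truncation scramble libraries, with no overlap. The difference was -4.94 ± 0.41 (adjusted p = 5.3e-10) under scramble, and -5.72 without truncation scramble replicate 2. In knockdown libraries the summed counts were 408 in WT and 3 in truncation cells, a ratio per library total of 135.7 with a 95% exact interval of 46.1 to 660.8. The exons of B3GALT5 and B3GALT5-AS1 share 0 annotated bases, but the strand setting of the counting is not given in the sources used here, so reads of one strand and the other cannot be told apart.

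SAMD3 runs the other way from TMEM200A, and the annotated gene bodies are 309 bases apart (SAMD3, chromosome 6, 130144315 to 130365425, minus strand). SAMD3 had 2.09, 2.5, 1.73 and 1.21 CPM in WT scramble libraries and 0, 0.101, 0.168 and 0.0683 CPM in truncation scramble libraries. Every WT library was higher (-4.4 ± 0.4, adjusted p = 2.8e-09), and under knockdown the difference was -3.71 ± 0.41 (adjusted p = 6.9e-08). Truncation libraries held 0 to 5 counts of SAMD3 under scramble and 1 to 4 under knockdown. L3MBTL3, the next gene beyond SAMD3, had -0.2 ± 0.07 and -0.18 ± 0.07.

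CD96, a receptor of T and NK cells, surrounds ZBED2 on the opposite strand (chromosome 3, 111292719 to 111665750). CD96 had 0.838, 0.936, 1.07 and 1.57 CPM in WT scramble libraries and 0.173, 0, 0 and 0.0683 CPM in truncation scramble libraries. The groups did not overlap, and the highest value was in WT scramble replicate 4, the library with the raised blood cell markers. The difference was -4.11 ± 0.49 (adjusted p = 2.4e-07) under scramble, and between -5.36 and -3.71 with any 1 library left out, the lowest without truncation scramble replicate 1. Under knockdown, where no library had such markers above 5.5 CPM, it was -4.16 ± 0.58 (adjusted p = 2.2e-06). The exons of ZBED2 and CD96 share 0 annotated bases, but with the strand setting and annotation of the counting not given in the sources used here, reads of the 2 genes cannot be told apart, and the difference of CD96 is uncertain.

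The remaining 2 lay farther off. CCN3, a secreted matrix-associated protein, lies 170633 bases from MAL2 (chromosome 8, 119416306 to 119424353). It had 2.13, 2.67, 1.73 and 1.96 CPM in WT scramble libraries and 0.277, 0.101, 0.371 and 0.103 CPM in truncation scramble libraries, which did not overlap. CCN3 differed by -3.29 ± 0.37 (adjusted p = 9.6e-08) under scramble and -2.91 ± 0.43 (adjusted p = 4.2e-06) under knockdown, where it was -3.56 without truncation knockdown replicate 4. These rest on 3 to 11 counts a library in truncation scramble cells and 0 to 9 in truncation knockdown cells. The gene ENSG00000249631, 195949 bases from HS3ST1 (chromosome 4, 11625714 to 11813958), had 1.47, 1.35, 1.42 and 1.5 CPM in WT scramble libraries and 0.0692, 0, 0.168 and 0.103 CPM in truncation scramble libraries. It was lower by -4.01 ± 0.41 (adjusted p = 1.5e-08) under scramble and -2.24 ± 0.39 (adjusted p = 4.6e-05) under knockdown, at 0 to 5 and 2 to 7 counts a truncation library. Neighbours of MECOM, DACT1, ADGRF1 and SYK included none of these 5. RPL22P1 inside MECOM is a pseudogene whose count can hold reads of its parent gene, and it had -0.37 ± 0.1 and -0.02 ± 0.1.

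**Figure D3:**
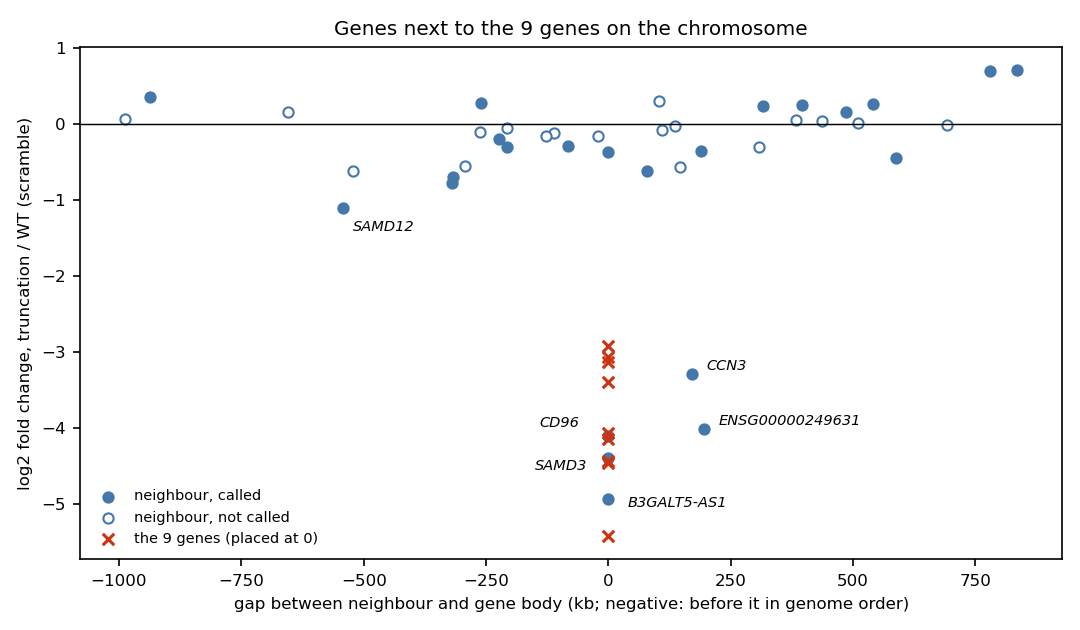
Log2 fold change of truncation against WT cells with scramble siRNA (vertical axis) for the 41 neighbours, by the gap between neighbour and gene body in kb (horizontal axis, negative for genes before it in genome order); filled points were called and red crosses are the 9 genes, placed at 0. Of the neighbours, 5 lie near the crosses, from -4.94 to -3.29, and the other 36 lie between -1.11 and 0.71.

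Among relatives and partners of the 9 genes more were called lower than higher in truncation cells. The 9 lists, 1 for each gene, held 186 entries, of which 136 genes were tested. Under scramble 68 of the 136 were called (50.0%), beside 44.0% of all tested genes, with 23 higher (16.9%, beside 21.6%) and 45 lower (33.1%, beside 22.4%). Under knockdown 71 were called (52.2%), beside 45.5%, with 21 higher (15.4%, beside 21.9%) and 50 lower (36.8%, beside 23.6%). Under each siRNA the share called lower was above that of all tested genes and the share called higher below it. The lists were chosen with earlier results known, so these shares are given with no test. With upper-quartile scaling, which also moves the split over all genes under scramble from 3692 higher and 3837 lower to 3084 and 4561, the scramble split of the lists was 20 higher and 56 lower, beside 18.0% and 26.7% of all tested genes. The median difference over the 136 was -0.06 under scramble and -0.11 under knockdown, beside -0.021 and -0.003 over all tested genes. At least 2-fold lower were 5 of the 136 under scramble and 4 under knockdown, beside 2.95% and 2.5% of all tested genes.

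Of 24 tested galactosyl- and fucosyltransferases of lactosamine and Lewis chains, 12 fell (50.0%) and 4 rose (16.7%) under scramble, and 9 fell (37.5%) and 4 rose under knockdown. As for each list that follows, these counts stand beside 22.4% of all tested genes called lower and 21.6% called higher under scramble, and 23.6% lower and 21.9% higher under knockdown. FUT3, the Lewis fucosyltransferase, fell under scramble (0.0513 against 0.28 CPM, -2.36 ± 0.68, adjusted p = 0.00635) and had -0.44 ± 0.48 under knockdown (adjusted p = 0.482). B3GALT1 had -1.97 ± 0.64 (adjusted p = 0.0153), a call lost without WT scramble replicate 1 or truncation scramble replicate 3 (adjusted p up to 0.0573), and it fell under knockdown (-1.54 ± 0.4). B3GNT4, which extends lactosamine chains, fell under both (-0.64 ± 0.14 and -0.88 ± 0.16), and B3GALT4 rose under both (0.81 ± 0.21 and 0.86 ± 0.2). FUT3 and B3GALT1 were under 1 CPM on average in all 4 groups.

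Among 17 heparan sulfate enzymes 4 rose and 4 fell (23.5% each) under scramble, and 3 rose (17.6%) and 6 fell (35.3%) under knockdown. XYLT1 and XYLT2, which start the chains, fell under both siRNAs (XYLT1 -1.06 ± 0.16 and -0.9 ± 0.16, XYLT2 -0.67 ± 0.09 and -0.79 ± 0.09), as did EXTL3 (-0.65 ± 0.05 and -0.45 ± 0.05). EXT1, a chain polymerase, rose under both (0.58 ± 0.06 and 0.54 ± 0.05). Among 22 genes of the MAL family and apical transport 8 fell (36.4%) and 1 rose (4.55%) under scramble, and 9 fell (40.9%) and 3 rose (13.6%) under knockdown. RAB25, an epithelial recycling GTPase, fell from 54.8 to 24.9 CPM under scramble (-1.14 ± 0.08) and from 31.4 to 11.0 CPM under knockdown (-1.51 ± 0.09). MARVELD3 (-0.78 ± 0.08 and -0.88 ± 0.08) and the MAL relative MALL (-0.67 ± 0.05 and -0.65 ± 0.05) fell by less. MUC1 had -0.57 ± 0.2 under scramble, a call that failed on leaving out any of 4 libraries (WT scramble replicates 1 and 3, truncation scramble replicates 1 and 2, adjusted p up to 0.0714), and -0.13 ± 0.2 under knockdown (adjusted p = 0.615).

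Of 18 kinases, adaptors and receptors of SYK signalling 6 rose (33.3%) and 4 fell (22.2%) under scramble, and 5 rose and 5 fell (27.8% each) under knockdown. FYN, a Src-family kinase, fell (-0.67 ± 0.11 and -0.62 ± 0.1), while CBLB, a ubiquitin ligase (0.59 ± 0.08 and 0.65 ± 0.08), YES1 (0.36 ± 0.06 and 0.25 ± 0.06) and the adaptor GRB2 (0.34 ± 0.05 and 0.48 ± 0.05) rose. Of 23 DACT, Dishevelled and planar polarity genes 9 fell (39.1%) and 5 rose (21.7%) under scramble, and 8 fell (34.8%) and 3 rose (13.0%) under knockdown. ROR1, a Wnt receptor, fell from 6.73 to 1.83 CPM under scramble (-1.88 ± 0.15) and from 6.14 to 2.82 CPM under knockdown (-1.12 ± 0.14). CELSR1 (-0.7 ± 0.09 and -0.79 ± 0.09) and FZD3 (-0.68 ± 0.11 and -0.56 ± 0.1) fell under both. VANGL2 fell too (-0.79 ± 0.19 and -0.59 ± 0.19), and its knockdown call was lost without truncation knockdown replicate 1 (adjusted p = 0.0626).

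Of 13 PRDM family and CtBP genes 2 rose (15.4%) and 1 fell (7.69%) under scramble, and 1 rose (7.69%) and 3 fell (23.1%) under knockdown. PRDM1 rose (1.36 ± 0.13 and 0.86 ± 0.11), PRDM16, the closest relative of MECOM, fell (-0.63 ± 0.11 and -0.62 ± 0.11), and PRDM4 rose under scramble (0.18 ± 0.05) and had -0.06 ± 0.05 under knockdown (adjusted p = 0.359). Of 17 adhesion G protein-coupled receptors 7 fell (41.2%) and 1 rose (5.88%) under scramble, and 9 fell (52.9%) and 2 rose (11.8%) under knockdown. Besides CELSR1, ADGRA2 (-0.69 ± 0.12 and -0.93 ± 0.13) and ADGRE2 (-0.56 ± 0.09 and -0.48 ± 0.1) fell, and ADGRG6 rose (0.69 ± 0.07 and 0.6 ± 0.07). TMEM200B, the single tested relative of TMEM200A, fell (-0.78 ± 0.1 and -0.81 ± 0.11). Of 4 other ZBED genes 2 fell under each siRNA. ZBED4 had -0.3 ± 0.06 and -0.36 ± 0.05, and ZBED5 fell under scramble (-0.22 ± 0.07) and had -0.11 ± 0.06 under knockdown (adjusted p = 0.181).

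**Figure D4:**
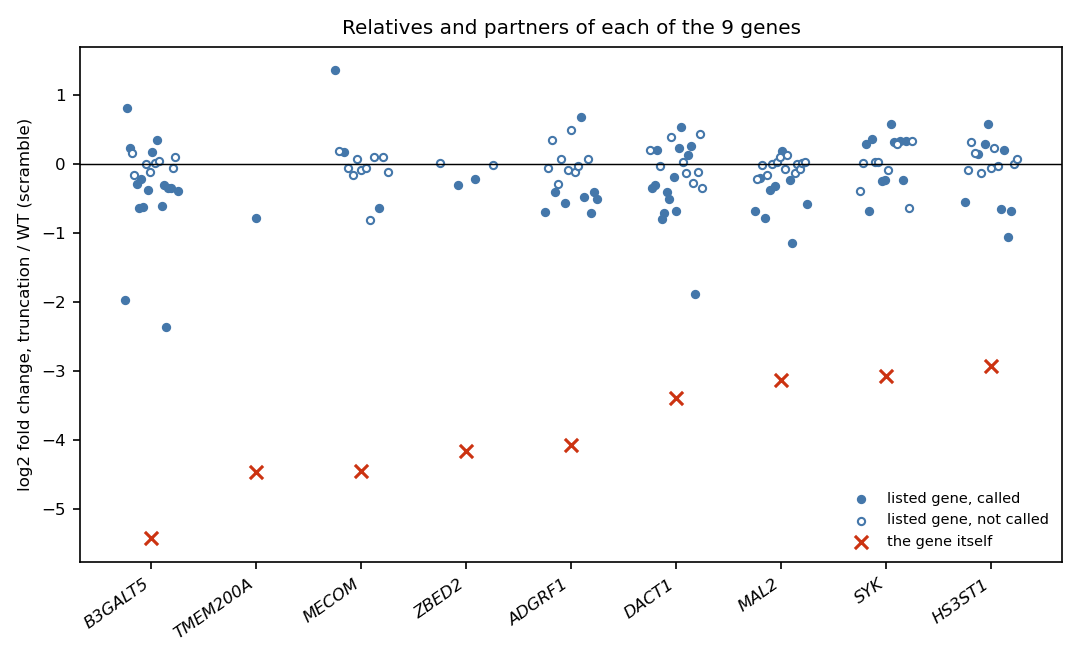
Log2 fold change of truncation against WT cells with scramble siRNA (vertical axis) for the tested genes of each list (blue, filled when called), by the gene whose relatives and partners they are (horizontal axis), with the gene itself as a red cross. The listed genes lie between -2.36 (FUT3) and 1.36 (PRDM1). Every cross lies below its own list, but the genes shown as crosses were chosen by their low levels in this comparison. Nothing is therefore read from the position of the crosses.

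Across the 16 libraries the 9 genes followed each other mainly through genotype. Pearson's r between pairs of them ran from 0.67 (ZBED2 and DACT1) to 0.996 (MAL2 and HS3ST1), and the lower values belonged to pairs that knockdown moved apart. Because all 9 were chosen by low levels in truncation cells, high values of r between them follow from that choice. The 6 other genes most like the mean standardised profile of the 9, among 12411 candidates, were PROM1 (r = 0.997), NRP1 (0.991), ATP2C2 (0.987), WNT16 (0.981), STK39 (0.981) and HAS3 (0.981). The 16 points share the 4 groups, and all 6 genes were low in truncation cells, as was the profile they were matched to. Ranked by Spearman's rho 0 of the 6 stayed among the first 6. PROM1, which encodes the surface protein CD133, had 22.8 ± 1.74 CPM (SD, n = 4) in WT scramble and 3.87 ± 0.0665 in truncation scramble libraries. PROM1 differed by -2.55 ± 0.09 under scramble and -2.64 ± 0.09 under knockdown. HAS3, a hyaluronan synthase, stood at 89.0 ± 4.31 CPM in WT scramble and 26.4 ± 1.4 CPM in truncation scramble libraries (-1.75 ± 0.06), and under knockdown differed by -1.45 ± 0.06. WNT16 went from 125 ± 6.16 to 31.9 ± 0.957 CPM (-1.97 ± 0.07, and -1.59 ± 0.07 under knockdown), STK39 differed by -1.36 ± 0.05 and -1.55 ± 0.05, and ATP2C2 by -1.28 ± 0.1 and -1.33 ± 0.1.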

How the data were processed

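The authors deposited raw counts per Ensembl gene (60668 genes), a filtered table of the same counts (22916 genes) and TMM-scaled CPM of the filtered counts as a table of signal. Per the submitters' processing notes STAR 2.7.3a, DESeq2, edgeR and limma were used with hg38. Counter, annotation and use of strand were not given in the sources used here. Samples were grouped by description and treatment labels. Raw counts were filtered with filterByExpr (17104 genes, at least 99.8% of counts), scaled by TMM and fitted with edgeR 4.0.16's quasi-likelihood model (R 4.3.3), 1 coefficient per group, 12 residual degrees of freedom, two-sided, with Benjamini-Hochberg adjustment over all tested genes. DESeq2 1.42.0 and limma 3.58.1 (voom) were alternatives. The common biological coefficient of variation was 7.25%. Tested on simulated data with 200 changed genes, edgeR recovered 92.2% of log2 changes of 1 and 73.1% of 0.5 for knockdown in truncation cells (16787 genes). For truncation in scramble cells (16783 genes) it recovered 100% and 83.3%. False calls were 4.8% and 4.1% of calls in these 2, 6.2% for truncation with knockdown and 5.6% for knockdown in WT cells. Changed genes were drawn from those with a mean above 1 CPM, so recovery of lower genes was not measured. Far more genes were called in the data than were changed in the simulation. Gene positions and exon lengths are GENCODE 29 on GRCh38, the build named hg38.

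The 9 genes and all lists were chosen with earlier results of these data known. Other named genes are the 3 next in rank outside, up to 4 called genes of each list with the largest change under scramble, neighbours at least 2-fold changed in both truncation comparisons and the 6 genes most like the 9 by Pearson's r, ranked genes having a mean log2 CPM of 1 or more. CSF3R, SAMD12, NECTIN3, L3MBTL3, RPL22P1 and PTPRC were named after their values were seen. Exact binomial intervals on summed counts cover counting error only.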

Additional observations from a re-analysis of the deposited data

Results flagged for a closer look

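Each of the 9 genes was checked in each of the 4 groups, 36 groups of 4 libraries, for a library that lay far from the other 3 by Dixon's test, which chance alone meets in about 1 of 20 groups. It was met in 3 groups. TMEM200A in WT knockdown replicate 2 was lowest at 11.0 CPM, against 16.7 to 17.7 CPM in the other 3. ADGRF1 in the same library was highest at 63.5 CPM, against 52.9 to 53.9 CPM. HS3ST1 in truncation knockdown replicate 3 was highest at 14.3 CPM, against 11.9 to 12.2 CPM. Both WT values come from the library that also held the highest B3GALT5, DACT1, MECOM, ZBED2 and SYK and the lowest HS3ST1 and MAL2 levels of its group.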

How the results depend on the processing

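The counts of called genes stayed within 1.5 times their value under RLE and upper-quartile scaling, other filters, DESeq2, limma-voom, fits of only the 2 groups compared and each library left out. With 1 library left out, 8 of the 9 genes were called for knockdown in WT cells in every fit and 6 to 8 in truncation cells. Neighbours called were 20 to 22 under scramble and 21 to 24 under knockdown, and listed relatives 60 to 67 and 63 to 78. With only truncation libraries in the fit, 7 of the 9 genes passed the filter, all but B3GALT5 and MECOM, and 6 were called. No difference of the 9 genes changed sign. With the replicate number as a block, 8 and 7 of the 9 were called for knockdown in WT and truncation cells, 24 and 24 neighbours under scramble and knockdown, and 69 and 76 relatives. The numbers do not pair the libraries, since deviations of same-numbered libraries correlated between -0.0837 and 0.164 over 24 pairs, and only 4 were over 0.1. Depth limits B3GALT5 (0 to 23 counts a library in truncation cells) and MECOM (2 to 12). It also limits the 5 neighbours at least 2-fold lower under both siRNAs (0 to 11). Calls that changed with 1 library left out are given beside B3GALT5 and MECOM and beside B3GALT1, MUC1 and VANGL2.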
